A study of Mus musculus with 11 samples.

Results

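In all, 10 genes known from fat cells were followed through 11 expression arrays of mouse colon: Adipoq, Fabp4, Scd1, Plin1, Plin4, Cidec, Cfd, Retn, Lep and Pck1. A probe set counted for a gene where the platform annotation gave it that gene's symbol and no other. By this rule 8 of the 10 genes had at least 1 probe set, and 14 of the 45037 probe sets other than controls belonged to them. Fabp4 had 4 probe sets, Pck1 had 3, Scd1 had 2, and the remaining 5 genes had 1 each. Plin1, the coat protein of the fat droplet in adipocytes, and Cfd, which encodes the serum protease adipsin, are unnamed in the annotation used here and have no value below.

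The colon came from adult mice of the C57BL/6 background strain. The control group held 3 arrays of colon taken before imatinib, and 4 arrays each followed an imatinib injection by 3 h and by 12 h. Imatinib is a small inhibitor of tyrosine kinases, among them Abl, Kit and the PDGF receptors, and the series concerns EphB and Abl signalling in intestinal tumours. Dose, sex and the length of colon taken are not in the labels. Colon of mice injected with vehicle, or killed at matched hours without the drug, was not analysed here, so drug, injection and hour of harvest cannot be told apart. The labels do not say that each array came from its own mouse, so the p-values measure only the spread between these samples.

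White adipocytes store triglyceride in a single droplet and secrete hormones such as adiponectin and leptin. In the gut they lie in the mesentery along the attachment of the bowel, so a piece of colon carries as much fat as the dissection left on it. The labels name colon and do not mention mesentery. PPAR-gamma and the C/EBP factors switch on most adipocyte genes during differentiation, and insulin, fasting hormones and glucocorticoids set several of them from hour to hour in mature cells. Some members are also made outside fat: Fabp4 in capillary endothelium and macrophages, Scd1 in many lipid-making cells, and Pck1 in liver, kidney and gut epithelium.

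Promoter sequences show what kind of regulatory letters sit before these genes. They were taken from RefSeq on GRCm38.p6, as the 250 bases before the start of a gene, and 8 of the 10 members had an entry, with 9 windows because Cidec had 2. Fabp4 and Scd1 were not matched. The windows below are those of Adipoq and Cidec, whose signals moved together from array to array, and of Pck1, whose signal did not follow them. Capitals mark a match to TTNNGNAA, a pattern of C/EBP type, or to TGACG, the core of a cAMP response element, each searched on both strands and each read 5′ to 3′ toward the gene.
Adipoq, chr16:23146286-23146535, plus strand: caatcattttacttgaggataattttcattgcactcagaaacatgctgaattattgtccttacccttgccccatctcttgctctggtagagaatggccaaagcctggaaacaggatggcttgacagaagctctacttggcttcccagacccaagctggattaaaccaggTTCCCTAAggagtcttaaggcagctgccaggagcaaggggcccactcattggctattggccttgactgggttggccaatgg
Cidec, first start, chr6:113435761-113436010, minus strand: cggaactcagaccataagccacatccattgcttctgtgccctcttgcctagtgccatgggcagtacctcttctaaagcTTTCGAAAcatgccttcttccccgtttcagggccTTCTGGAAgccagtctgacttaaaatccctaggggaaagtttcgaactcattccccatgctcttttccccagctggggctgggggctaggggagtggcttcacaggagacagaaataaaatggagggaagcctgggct
Cidec, second start, chr6:113434765-113435014, minus strand: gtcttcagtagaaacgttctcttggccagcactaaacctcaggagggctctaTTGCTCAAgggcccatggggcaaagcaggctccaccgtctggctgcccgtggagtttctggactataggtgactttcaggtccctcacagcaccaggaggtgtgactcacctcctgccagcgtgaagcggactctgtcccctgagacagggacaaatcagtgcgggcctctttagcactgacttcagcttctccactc
Pck1, chr2:173152823-173153072, plus strand: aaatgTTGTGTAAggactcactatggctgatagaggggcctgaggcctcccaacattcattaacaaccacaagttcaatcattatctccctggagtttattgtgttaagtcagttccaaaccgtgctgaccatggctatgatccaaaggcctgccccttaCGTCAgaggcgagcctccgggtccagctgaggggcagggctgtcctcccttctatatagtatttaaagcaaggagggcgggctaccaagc

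The C/EBP-type pattern stood in 6 of the 9 member windows and in 36.8% of the 32851 mouse promoter windows of the same length. In Adipoq it began 81 bases before the start, in the first Cidec window at 172 and 138 bases, in the second at 198 bases, and in Pck1 at 245 bases. The 6 include both Cidec windows and those of Lep and Plin1. The pattern was absent from the windows of Retn, Plin4 and Cfd. Retn and Plin4 also followed Adipoq from array to array (correlation 0.83 each within groups), so the pattern did not mark the members that moved together. The TGACG core stood 90 bases before the start of Pck1, the promoter whose cAMP response element mediates induction by glucagon, and in none of the other member windows, against 17.8% of all windows. The nuclear receptor motif AGGTCA (14.0% of all windows), the glucocorticoid receptor motif AGAACA (16.1%) and the E-box CACGTG (6.02%) were found in 0 of the 9. The CCAAT box was found in the windows of Adipoq and Plin4, 2 of the 9, against 33.8% of all windows, and in Adipoq it occurred 3 times. These are matches of letters in a short window and say nothing of binding.

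Signals are linear intensities that had been scaled to the same trimmed mean on every array. The levels of different probe sets cannot be set against each other as amounts of RNA. Changes are differences of log2(signal + 16), where 16 is an offset that damps dim values and makes the fold change of a dim gene too small. The tests are limma's, fitted to 18193 genes on all 11 arrays, and adjusted p means Benjamini-Hochberg adjustment over all of them. Both imatinib groups were compared with the same 3 control arrays, so these comparisons are not independent of each other. In RNA from whole tissue, fewer cells of a type and less RNA of a gene per cell cannot be told apart.

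**Figure D1:**
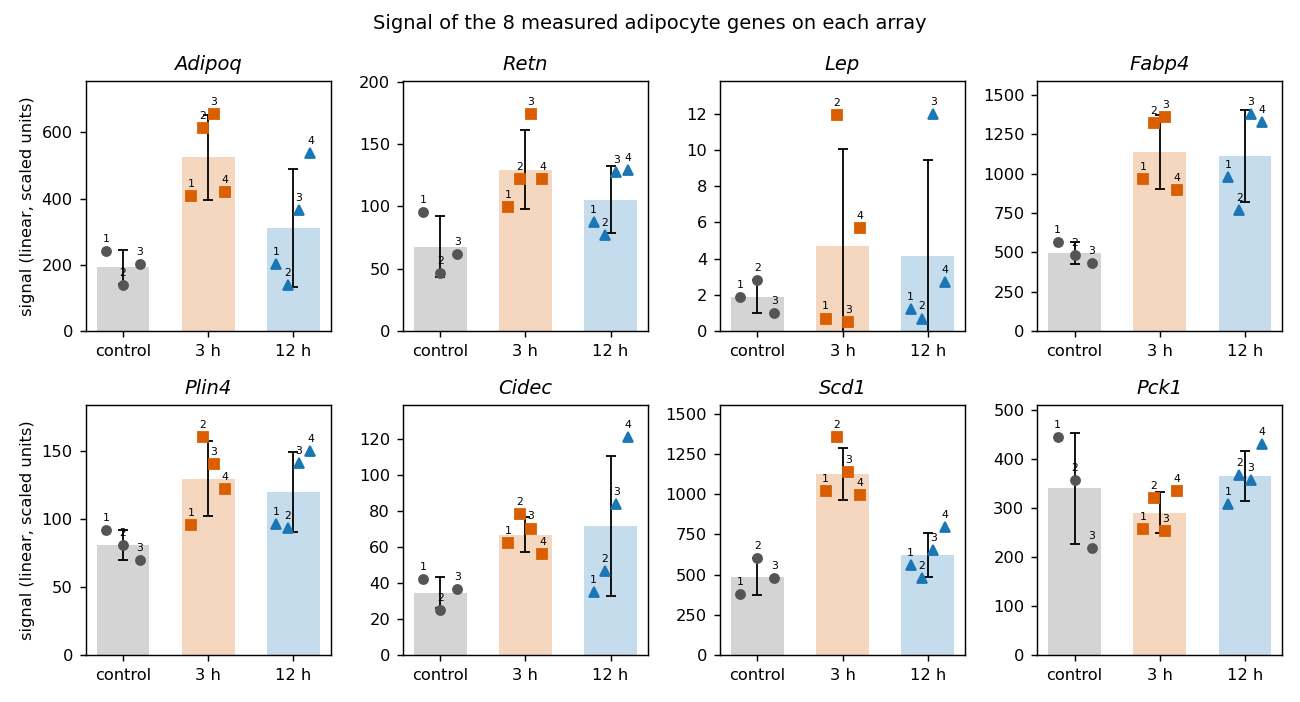
Linear signal (y axis, scaled units) of each of the 8 measured genes on the 3 control, the 4 arrays at 3 h and the 4 at 12 h (x axis). Points are arrays with their replicate number, bars are group means and error bars 1 SD; for 6 of the 8 genes every array at 3 h lies above every control, while Lep stays at or under 12.0 and Pck1 overlaps.

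After 3 h, Scd1 and Fabp4 rose a little more than 2-fold, and 4 further members, Adipoq, Retn, Plin4 and Cidec, had higher signals on every 3 h array than on any control array without passing the test. Lep was not measurable above the dim range, and Pck1 stayed within the range of its controls. Of all genes, 1.43% were called higher at 3 h, 1.11% lower and 2.54% in either direction. Among the 8 members 2 were called, both higher. Arrays did not overlap and were higher at 3 h for 6 of the 8 members and for 6.76% of all genes, and lower for 0 members and 8.55% of all genes. The median change was 0.76 over the members and -0.02 over all genes. The members, like the lists below, were chosen with earlier results of these data known. Setting their counts and medians against those of all genes, here and below, is therefore a description and not a test.

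Adiponectin, encoded by Adipoq, is the most abundant hormone of fat cells and is made by almost no other cell. Its signal on the 3 control arrays was 240.4, 139.6 and 203.3. At 3 h it was 406.7, 613.9, 655.8 and 420.8, and at 12 h 202.9, 137.8, 365.1 and 538.0. Every 3 h array stood above every control, but the 12 h arrays split, with replicates 1 and 2 at the level of the controls and replicates 3 and 4 well above them. The group means were 194.4 ± 51.0 (SD, n = 3), 524.3 ± 128.9 (SD, n = 4) and 311.0 ± 179.0 (SD, n = 4). The change at 3 h was 1.36 ± 0.37 (log2, SE), 2.57-fold on the offset scale, and did not pass the test (limma, adjusted p = 0.08). At 12 h it was 0.49 ± 0.37 (adjusted p = 0.59), and 12 h against 3 h was -0.86 ± 0.34 (adjusted p = 0.204). The 3 h value passed in fits without 12 h replicate 4 (adjusted p = 0.0357) or without 12 h replicate 2 (0.0455), arrays that enter it only through the shared estimate of the spread. It did not pass in any fit that left out a control or a 3 h array (adjusted p from 0.113 to 0.255). Over the 28 alternatives of processing described below, it passed in 6 and not in 22. The 6 included a fit of the control and 3 h arrays only (limma, adjusted p = 0.0184) and a filter at a mean signal of 50 (0.0384).

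Resistin, the Retn product, is a second hormone that mouse adipocytes secrete. Its signals were 95.2, 46.9 and 61.5 in the controls, 99.6, 122.0, 174.4 and 121.7 at 3 h, and 87.8, 77.0, 127.5 and 129.6 at 12 h. The 3 h arrays lay above the controls by a narrow margin, because control replicate 1 was close to the lowest 3 h array, and the 12 h arrays overlapped the controls. The change was 0.81 ± 0.23 at 3 h (limma, adjusted p = 0.0903) and 0.55 ± 0.23 at 12 h (0.266). At 12 h the same replicates, 3 and 4, were the high ones as for Adipoq.

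Leptin, the satiety hormone of the fat cell, gave next to no signal. Lep lay between 0.5 and 12.0 over the 11 arrays, under the offset of 16 on all of them, and its highest values were 11.9 on 3 h replicate 2 and 12.0 on 12 h replicate 3. No order can be read among such values. The adjusted p was 0.782 at 3 h and 0.819 at 12 h (limma).

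Fabp4 carries fatty acids inside the adipocyte. On the control arrays its signal was 568.2, 483.2 and 432.1. At 3 h it was 967.4, 1319.3, 1358.3 and 897.8, and at 12 h 975.1, 765.8, 1379.4 and 1329.3. All 8 arrays after imatinib lay above all 3 controls, and unlike Adipoq the gene was high on 12 h replicates 1 and 2 as well. Fabp4 rose by 1.16 ± 0.21 at 3 h, 2.23-fold on the offset scale (limma, adjusted p = 0.0161), and by 1.11 ± 0.21 at 12 h (adjusted p = 0.0276). Between the 2 time points the difference was -0.05 ± 0.20, with a 95% interval from -0.48 to 0.39. The 3 h call was lost without control replicate 2 (adjusted p = 0.0695), control replicate 3 (0.0545), 3 h replicate 2 (0.0514) or 3 h replicate 3 (0.0502). The 12 h call was lost without any 1 of the 3 controls (adjusted p = 0.0746, 0.105 and 0.0745) or without 12 h replicate 3 (0.0729).

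The other Fabp4 probe sets can be read only in part. The next brightest had signals from 86.8 to 350.8 and changes close to those of the first, 1.04 ± 0.23 at 3 h and 1.06 ± 0.23 at 12 h. It did not pass at the level of probe sets (limma over 45037 probe sets, adjusted p = 0.0674 and 0.0795). The remaining 2 were dim, with signals from 0.6 to 7.6 and from 5.0 to 22.0. At this level 0.961% of probe sets were called at 3 h, 0.486% at 12 h and 1.74% for 12 h against 3 h. The 14 member probe sets gave 3 calls at 3 h, 0 at 12 h and 1 between the time points.

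Plin4 and Cidec sit on the fat droplet, Plin4 as a coat protein of small, growing droplets and Cidec as the protein that fuses droplets into a single large one. Plin4 had signals of 91.8, 80.7 and 70.0 in the controls, 96.0, 160.4, 141.0 and 122.6 at 3 h, and 96.5, 93.7, 141.2 and 150.3 at 12 h. Every array after imatinib lay above every control, though the lowest by a few units only. The change was 0.58 ± 0.19 at 3 h (limma, adjusted p = 0.143) and 0.48 ± 0.19 at 12 h (0.237).

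Cidec was dimmer, with 42.2, 25.2 and 36.7 in the controls and 62.3, 78.5, 70.3 and 56.3 at 3 h. At 12 h it read 35.2, 46.5, 83.7 and 121.0. The 3 h arrays formed a tight group above the controls, whereas the 12 h arrays ran from control level in replicate 1 to the highest value of the series in replicate 4. The change was 0.72 ± 0.28 at 3 h (limma, adjusted p = 0.231) and 0.70 ± 0.28 at 12 h (0.245), so neither passed.

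Scd1 puts the double bond into newly made fatty acids and is under strong control by insulin and diet. Control signals were 376.1, 603.5 and 481.1. Those at 3 h were 1017.5, 1353.6, 1135.4 and 994.2, and those at 12 h were 562.1, 475.9, 654.8 and 794.2. The 3 h arrays stood apart from all 7 others, and the 12 h arrays overlapped the controls. Scd1 rose by 1.20 ± 0.19 at 3 h, 2.29-fold on the offset scale (limma, adjusted p = 0.00739), and leaving out any 1 of the 11 arrays kept the call (adjusted p from 0.00488 to 0.0421). At 12 h the change against control was 0.34 ± 0.19 (adjusted p = 0.429). Scd1 thus had the order 3 h, then 12 h and control, whose arrays overlapped.

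From 3 h to 12 h Scd1 fell by 0.85 on the log2 scale (SE 0.18, limma, adjusted p = 0.02). This call was lost without 3 h replicate 2 (adjusted p = 0.0621), 3 h replicate 3 (0.0532), 12 h replicate 1 (0.0513) or 12 h replicate 2 (0.059). The other Scd1 probe set was dimmer, with signals from 40.3 to 104.3, and gave 0.83 ± 0.12 at 3 h (limma over probe sets, adjusted p = 0.00686) and -0.46 ± 0.11 between the time points (0.0615). Among the members, Scd1 alone was called for 12 h against 3 h, where 1.99% of all genes were called higher, 2.09% lower and 4.08% in either direction. Its arrays were also the only ones among the members that did not overlap there, against 5.26% of all genes lower and 6.28% higher without overlap.

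Pck1 makes phosphoenolpyruvate for glucose synthesis, and in fat cells it supplies the glycerol backbone of triglyceride during fasting. Its signals were 444.6, 358.0 and 218.8 in the controls, 256.6, 319.8, 252.5 and 334.6 at 3 h, and 308.6, 366.9, 356.5 and 431.4 at 12 h. The controls spanned all 8 arrays after imatinib. The change was -0.17 ± 0.20 at 3 h (95% interval from -0.61 to 0.27, limma, adjusted p = 0.783) and 0.14 ± 0.20 at 12 h (0.81). The second readable Pck1 probe set gave -0.16 ± 0.17 and 0.07 ± 0.17, and the other one was dim, at 0.5 to 9.3.

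**Figure D2:**
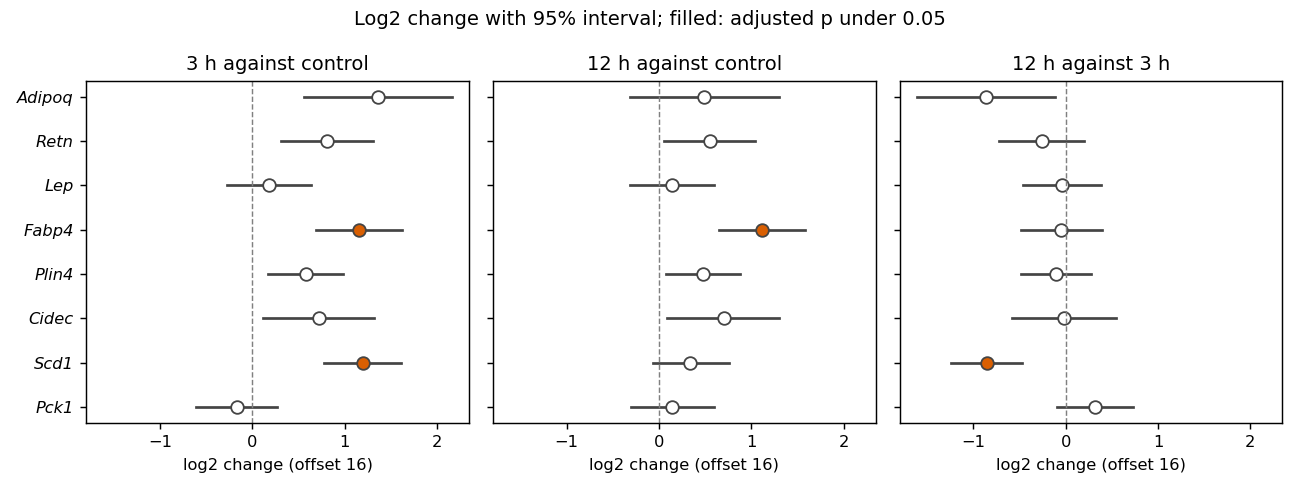
Change of each of the 8 measured genes on the scale of log2(signal + 16) (x axis) at 3 h and at 12 h relative to the controls and at 12 h relative to 3 h, with 95% intervals as lines and filled points where the adjusted p was under 0.05. Filled points are Scd1 (1.20) and Fabp4 (1.16) at 3 h, Fabp4 (1.11) at 12 h, and Scd1 (-0.85) between the time points.

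At 12 h, 0.781% of all genes were called higher than control, 0.835% lower and 1.62% in either direction, and 1 of the 8 members, Fabp4, was called. Arrays did not overlap and were higher at 12 h for 2 members, Fabp4 and Plin4, and for 6.02% of all genes, and lower for 0 members and 6.96% of all genes. The median change was 0.48 over the members and -0.01 over all genes. Between the time points the median was -0.07 over the members and 0.01 over all genes. At an unadjusted p under 0.05 the members counted 6 of 8 at 3 h, 4 at 12 h and 2 between the time points, Adipoq and Scd1, where all genes gave 15.0%, 15.8% and 17.7%. The 2 of 8 are near that share, which also holds as background for the unadjusted counts of the lists below.

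The spread of Adipoq within groups offers a second view of the members, because 12 h replicates 1 and 2 were low and 3 and 4 were high. After each group's mean was subtracted, the correlation with Adipoq over the 11 arrays was 0.90 for Cidec, 0.87 for Fabp4, 0.83 for Plin4 and 0.83 for Retn. Without the 2 arrays farthest from the median of Adipoq, 12 h replicates 4 and 2, these values were 0.87, 0.83, 0.77 and 0.86. The correlation was 0.53 for Scd1, and 0.03 without those 2 arrays. For Pck1 it was 0.21 and for Lep 0.33. These are descriptions of 11 arrays that share their scaling, and many genes of an array vary together.

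**Figure D3:**
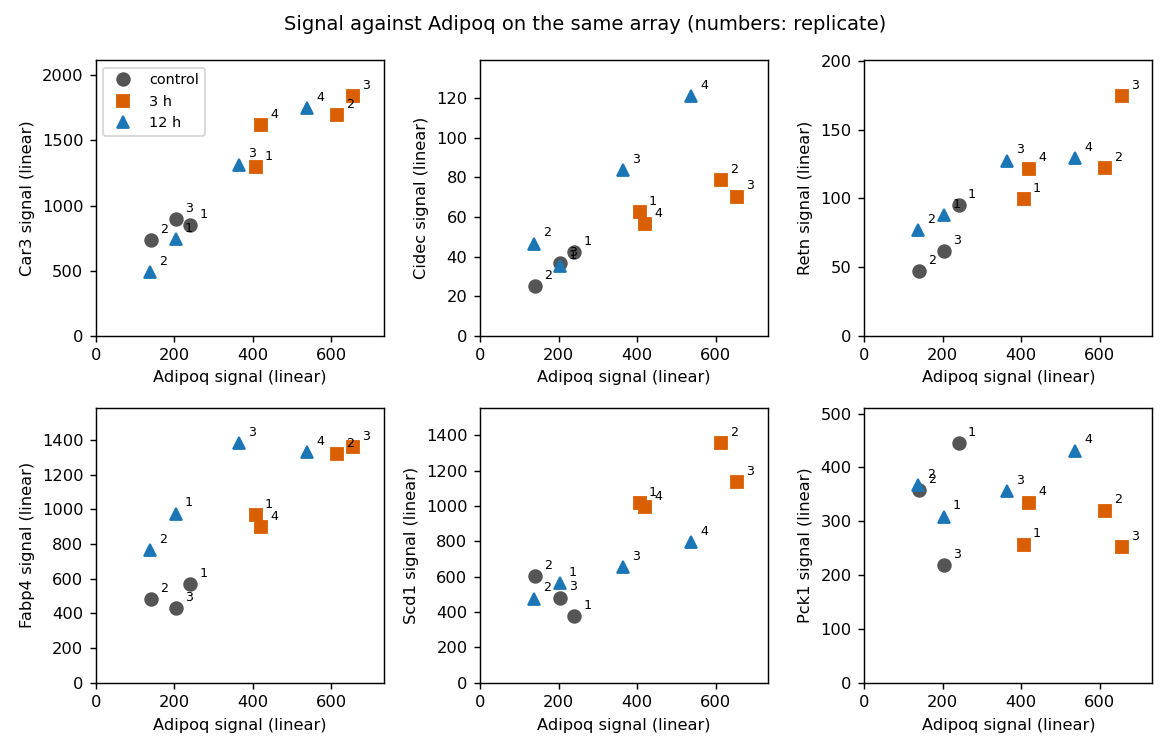
Linear signal of Car3, Cidec, Retn, Fabp4, Scd1 and Pck1 (y axes) against that of Adipoq on the same array (x axis), with control arrays as circles, 3 h as squares, 12 h as triangles and replicate numbers beside them. Car3 broadly rises with Adipoq in each group. Fabp4 on 12 h replicates 1 and 2 lies above the control arrays of like Adipoq signal, and Pck1 shows no order.

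The 10 genes most like Adipoq by this measure, among 9165 genes with a mean signal of at least 50, were Dstn (0.97), Car3 (0.95), Lpl (0.94), Eif3e, Saraf and Pdlim4 (0.93 each), and ccdc198, Med17, Rnf217 and Lgr4 (0.92 each). Car3, a carbonic anhydrase abundant in fat, and Lpl, the lipase that frees fatty acids from lipoproteins for uptake, are the 2 on the lists of adipocyte and fat uptake genes. Car3 read 847.1, 732.0 and 895.2 in the controls, 1296.7, 1694.5, 1839.7 and 1616.4 at 3 h, and 739.3, 488.0, 1314.1 and 1749.1 at 12 h. Like Adipoq, it was high on all 3 h arrays, and at 12 h low on replicates 1 and 2 and high on 3 and 4. The change of Car3 at 3 h was 0.95 ± 0.33 (limma, adjusted p = 0.182) and that of Lpl 0.77 ± 0.29 (0.22). Dstn, an actin-severing protein, ranked above both, and Cidec ranked 16, Fabp4 35, Retn 87, Plin4 98, Scd1 1068 and Pck1 3011 by the same measure.

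Ratios of signals on the same array show where a member and Adipoq moved by unequal amounts. Car3 over Adipoq was 3.52 to 5.24 in the controls, 2.76 to 3.84 at 3 h and 3.25 to 3.64 at 12 h, while Adipoq itself ran from 137.8 to 655.8. This ratio was higher on control replicates 2 and 3 than on any array after imatinib. Fabp4 over Adipoq was 2.13 to 3.46 in the controls and 2.07 to 2.38 at 3 h. At 12 h it was 4.81, 5.56, 3.78 and 2.47, above all 4 arrays at 3 h, and highest on replicates 1 and 2. Cidec over Adipoq was 0.176 to 0.181 in the controls, 0.107 to 0.153 at 3 h and 0.173 to 0.337 at 12 h. Scd1 over Adipoq was 1.56 to 4.32, 1.73 to 2.5 and 1.48 to 3.45, with full overlap. Pck1 over Adipoq lay at 0.385 to 0.795 at 3 h, under all controls (1.08 to 2.56) and all 12 h arrays (0.802 to 2.66). Plin4 over Adipoq was 0.344 to 0.578 in the controls, 0.215 to 0.291 at 3 h and 0.279 to 0.68 at 12 h. For Retn the ratio was 0.303 to 0.396, 0.199 to 0.289 and 0.241 to 0.559. The 3 h ratios of Cidec, Plin4 and Retn thus also lay under all controls.

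Members were also set against 9 other adipocyte markers, as the member's log2 level minus the mean log2 level of those markers on the same array. By this measure Adipoq was 1.00 higher at 3 h than in the controls, Scd1 0.83 and Fabp4 0.80. Each had p = 0.0571 by a 2-sided exact permutation test, the smallest that 3 against 4 arrays can give. At 12 h Fabp4 was 0.89 higher (exact permutation p = 0.0571) and Adipoq 0.28 (p = 0.629). From 3 h to 12 h Scd1 changed by -0.71 and Pck1 by 0.46, each with exact permutation p = 0.0286, the smallest that 4 against 4 arrays can give. At 3 h the value was 0.22 for Plin4, 0.35 for Cidec and 0.45 for Retn. With so few arrays none of the 24 member tests could pass 0.05 after adjustment, so the values are given as sizes only. The sizes also rest on the reference, since only 4 of the 9 markers had a mean signal of at least 50. Against those 4 the values at 3 h were 0.78 for Adipoq, 0.61 for Scd1, 0.57 for Fabp4, 0.23 for Retn, 0.13 for Cidec and -0.01 for Plin4.

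The 9 markers themselves did not move as one at 3 h: Mrap, Car3, Pparg and Gpd1 had changes of 1.09, 0.95, 0.94 and 0.40, and the other 5 lay between -0.12 and 0.05. Their summed signal was 1093.6 to 1291.7 in the controls, 2032.4 to 2503.1 at 3 h and 998.2 to 2277.7 at 12 h, most of it from Car3 and Pparg. Of the 9, 2 rose at 3 h, Pparg and Mrap, 0 were called at 12 h against control, and Mrap fell between the time points. The median change was 0.05, 0.19 and 0.07 in the 3 comparisons. With their mean level as a covariate, the 3 h change of Adipoq was 0.14 (limma, adjusted p = 0.952), that of Fabp4 0.53 (0.557) and that of Scd1 0.99 (0.335). No member was called in any comparison of that fit. The mean level of the 9 markers was 5.96 to 6.09 in the controls and 6.30 to 6.55 at 3 h, without overlap. Its part in the 3 h result therefore cannot be told apart from that of the group.

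Pparg, the nuclear receptor that drives adipocyte differentiation and is also made by colon epithelium, read 196.8, 178.2 and 195.4 in the controls. It read 500.5, 346.0, 347.2 and 340.4 at 3 h and 246.4, 306.0, 332.1 and 273.5 at 12 h. The groups at 3 h, 12 h and control did not overlap, in that order. Pparg rose by 0.94 ± 0.15 at 3 h (limma, adjusted p = 0.00657), and at 12 h the change was 0.56 ± 0.15 (0.0811). Within groups it did not follow Adipoq, with a correlation of -0.09. Mrap, a partner of the melanocortin receptors, rose by 1.09 ± 0.25 at 3 h (adjusted p = 0.0458) and fell by 1.04 between the time points (0.0294), from signals that were under 50 on every array. Leaving out 1 array lost these Mrap calls in 9 and 6 of 11 fits (adjusted p up to 0.191 and 0.0863), while the 3 h call of Pparg was kept in all 11.

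Around the members, the uptake and triglyceride synthesis genes shifted in a few places. Of 11 measured, 2 rose at 3 h and the same 2 at 12 h. Dgat2, which adds the last fatty acid to triglyceride, rose by 0.86 ± 0.14 and 0.79 ± 0.14 (limma, adjusted p = 0.00836 and 0.0217). Agpat2, the acyltransferase that makes phosphatidic acid, rose by 0.72 ± 0.13 and 0.75 ± 0.13 (adjusted p = 0.0147 and 0.0185). Leaving out 1 array lost the call of Agpat2 in 1 of 11 fits at 3 h and in 4 at 12 h (adjusted p up to 0.0746 and 0.0841), and that of Dgat2 in 0 and 4 (up to 0.0396 and 0.0793). The median over the list was 0.36 at 3 h and 0.13 at 12 h.

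Of 12 droplet and lipolysis genes, Mgll rose by 0.74 ± 0.14 at 3 h while the droplet coats Plin2 and Plin3 fell by 0.59 and 0.47 (limma, adjusted p = 0.0191, 0.0282 and 0.0445). Mgll is the lipase for monoglycerides, and Plin2 and Plin3 are relatives of Plin4 found in most cells. The highest-variance probe set of Mgll gave the opposite sign, -0.46 at 3 h. From 3 h to 12 h, G0s2, an inhibitor of the main triglyceride lipase, rose by 0.78 ± 0.15 and Plin2 by 0.46 ± 0.11, and Mgll fell by 0.59. Leaving out 1 array lost the 3 h calls of Mgll, Plin2 and Plin3 in 3, 5 and 8 of 11 fits and the later ones of Mgll and Plin2 in 6 and 9, while that of G0s2 was kept in all 11. At 12 h against control 0 of the 12 were called, with 4 at an unadjusted p under 0.05.

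The genes that make and desaturate fatty acids beside Scd1 gave few calls. Of 14, 0 were called at 3 h and at 12 h, with 3 at an unadjusted p under 0.05 each time, and the medians were 0.02 and 0.05. Between the time points 1 of them rose, Scd2, by 0.73 ± 0.18 (limma, adjusted p = 0.0388), with 5 at an unadjusted p under 0.05. Scd2 is a desaturase related to Scd1 and went the other way from it. Of 6 gluconeogenic genes beside Pck1, 0 were called in any comparison (1, 0 and 1 at an unadjusted p under 0.05). Of 11 fasting genes under PPAR-alpha, Vnn1 was called at 3 h (1.18 ± 0.28, adjusted p = 0.0495) and 0 in the others. At an unadjusted p under 0.05 the fasting genes counted 3, 1 and 6, with a median of -0.22 for 12 h against 3 h. Leaving out 1 array lost the calls of Scd2 and of Vnn1 in 9 of 11 fits each.

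Among 8 insulin signalling genes, Irs1, an insulin receptor substrate, fell by 1.07 at 3 h and 0.77 at 12 h (limma, adjusted p = 0.000425 and 0.00743). Irs2, its relative, fell by 1.16 from 3 h to 12 h (adjusted p = 0.00927). Of 6 receptors and partners of the secreted members, 0 were called in any comparison, with 0, 0 and 1 at an unadjusted p under 0.05. Of 15 relatives of the members, Plin2 and Plin3 fell at 3 h, Fabp7 fell by 0.86 at 12 h, and Scd2 and Plin2 rose from 3 h to 12 h. The call of Fabp7 was lost in 4 of 11 fits with 1 array left out, and those of Irs1 and Irs2 in 0.

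Of 12 adipogenic transcription factors, 4 rose at 3 h: Cebpb, Cebpd, Pparg and Klf9. Cebpb, an early factor of adipogenesis that also answers inflammation and hormones, read 161.9, 189.8 and 239.0 in the controls and 733.4, 819.6, 750.3 and 664.7 at 3 h. At 12 h it read 372.6, 309.4, 222.4 and 217.9, so the 3 h arrays stood apart and 12 h replicates 3 and 4, the ones high in Adipoq, were at control level. Cebpb rose by 1.84 ± 0.18 and Cebpd by 2.18 ± 0.29 at 3 h (limma, adjusted p = 0.000319 and 0.00243), and they fell by 1.38 and 1.80 from 3 h to 12 h (0.000919 and 0.00315). Klf9 and Klf15 fell by 0.68 and 1.09 in the same interval. With 1 array left out, the calls of Cebpb and Cebpd were kept in all 11 fits, while that of Klf9 at 3 h was lost in 5 and that of Klf15 in 8.

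Cebpd and Klf9 also stand on a list of 12 genes induced by glucocorticoids. Of these, 11 rose at 3 h, with a median change of 1.45, among them Fkbp5 (1.36 ± 0.11), Zbtb16 (1.86 ± 0.19), Sgk1 (1.90 ± 0.21) and Per1 (0.80 ± 0.11). At 12 h 4 were called higher, Fkbp5, Per1, Sgk1 and Lcn2, and 8 fell from 3 h to 12 h. Their mean log2 level was 8.36 to 8.41 in the controls, 9.73 to 10.01 at 3 h and 8.87 to 9.13 at 12 h. The call of Lcn2 was lost in 10 of 11 fits with 1 array left out. Among all genes, 1.43% were called higher at 3 h and 0.781% at 12 h, and 2.09% were called lower from 3 h to 12 h. The list was chosen with earlier results of these data known, so its counts do not test a response to glucocorticoids. The part of these genes in the members' change was not tested.

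**Figure D4:**
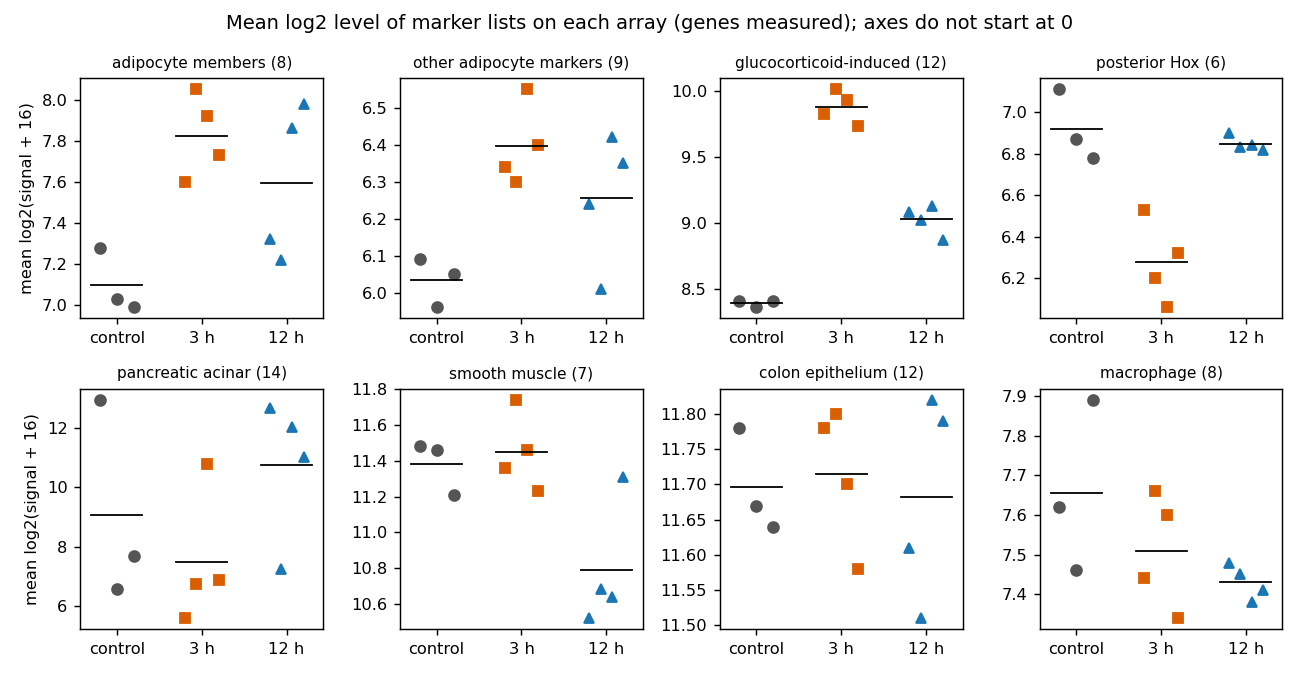
Mean of log2(signal + 16) over a list of genes (y axis, not starting at 0; the number of genes measured is in each title) on each array of the 3 groups (x axis), with group means as lines. The members and the other adipocyte markers are higher on the 3 h arrays than on the controls, the posterior Hox genes are lower there, and the pancreatic genes split the arrays across groups.

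Some tissue markers moved with the groups as well. Hox genes of the posterior body axis, whose level falls from the distal to the proximal colon, summed to 1457.1 to 1986.4 in the controls, 637.8 to 1075.0 at 3 h and 1472.5 to 1672.0 at 12 h. At 3 h 4 of 6 fell, Hoxb13, Hoxd13, Hoxa13 and Hoxd10, and the same 4 rose from 3 h to 12 h. With 1 array left out, the 3 h calls of these 4 were lost in 1, 2, 6 and 8 of 11 fits and the later ones in 0, 5, 5 and 0. Cdx2, an epithelial factor of the intestine, rose by 0.75 ± 0.10 at 3 h (limma, adjusted p = 0.00243). With the posterior Hox level as a covariate, the 3 h change was 0.63 for Scd1 (adjusted p = 0.936), 0.83 for Fabp4 (0.913) and 0.80 for Adipoq (0.986), and 3 of all genes were called. In that fit the 12 h change of Fabp4 was 1.08 (0.0499). Since the Hox level differed between the 3 h group and the others on every array, its part in the 3 h result cannot be told apart from that of the group.

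Pancreatic transcripts were high on 5 arrays, control replicate 1, 3 h replicate 3 and 12 h replicates 1, 3 and 4. The summed signal of 14 acinar genes was 5454.4 to 119692.6 in the controls, 4535.2 to 30652.3 at 3 h and 5462.6 to 93737.5 at 12 h, with 0 of the 14 called in any comparison (1, 0 and 1 at an unadjusted p under 0.05). On 3 h replicate 1, 10 of the 14 were under the offset, and most of the sum there came from Cela1 and Sycn. In the mouse the pancreas is spread through the mesentery. Without those 5 arrays the 3 h change was 1.02 for Scd1 (limma, adjusted p = 0.0977), 1.17 for Fabp4 (0.0743) and 1.40 for Adipoq (0.0809). The 12 h change of Fabp4 was then 0.73 (0.456), with 1 array left at 12 h that was assumed to vary like the other groups. With the pancreatic level as a covariate instead, Adipoq (1.55, adjusted p = 0.0401), Fabp4 (1.28, 0.0062) and Scd1 (1.18, 0.0164) were all called at 3 h. Of these 5 arrays, control replicate 1 (Adipoq 240.4), 3 h replicate 3 (655.8) and 12 h replicate 4 (538.0) had the highest Adipoq signal of their group. On 12 h replicate 3 Adipoq was also high (365.1), and on 12 h replicate 1 it was at control level (202.9). The part of pancreatic tissue in the Adipoq signal was not tested.

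Endothelium and macrophages also make Fabp4, and their part in its change was not tested. Of 8 endothelial markers 2 had a mean signal of at least 50, and 0 were called (1, 2 and 2 at an unadjusted p under 0.05). Their summed signal was 326.4 to 367.1 in the controls, 316.9 to 332.0 at 3 h and 229.6 to 326.4 at 12 h. Of 8 macrophage markers 1 fell at 12 h, Csf1r by 0.53, a call lost in 10 of 11 fits with 1 array left out, and none was called at 3 h (3 at an unadjusted p under 0.05). The mean log2 level of 7 mesothelial markers, the lining that covers mesentery, was 5.14 to 5.84, 4.76 to 5.48 and 4.94 to 5.83, with 0 called (1 in each comparison at an unadjusted p under 0.05). These markers were dim, 0 of 7 with a mean signal of at least 50, and their median changes were -0.43, -0.50 and 0.09. Brown adipocyte markers were dim, 0 of 5 with a mean signal of at least 50. None was called, nor at an unadjusted p under 0.05.

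Markers of the colon's own cells gave 1 call at 3 h. The mean log2 level of 12 epithelial markers was 11.64 to 11.78 in the controls, 11.58 to 11.80 at 3 h and 11.51 to 11.82 at 12 h, and Cdx2 was the one called. Of 7 smooth muscle markers 0 were called at 3 h, also at an unadjusted p under 0.05, and Des and Actg2 fell by 0.88 and 0.76 from 3 h to 12 h, calls lost in 6 of 11 such fits each. At 12 h against control 0 were called, with 6 at an unadjusted p under 0.05. The remaining lists had 0 calls: adventitial stroma (2, 2 and 1 at an unadjusted p under 0.05), B cells (1, 3 and 1), skeletal muscle (1, 1 and 1), enteric neurons and glia (0, 0 and 0), liver (0, 1 and 1) and male accessory gland (0, 0 and 0).

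RNA measures were compared as well. The ratio of 3′ to 5′ signal of Actb was 1.27 to 1.34, 1.27 to 1.38 and 1.23 to 1.37 in the 3 groups. Dap, a bacterial RNA added as a labelling control, read 773.3 to 920.2 in the controls, 814.2 to 1016.7 at 3 h and 1074.0 to 2051.0 at 12 h, so 12 h arrays held more of it than the controls. Phe, another such RNA, read 60.0 to 67.8, 73.1 to 102.5 and 91.0 to 160.2, higher on every array after imatinib than on any control. The part of these differences in the members' values was not tested.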

How the data were processed

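Total RNA of 11 colon samples was labelled and hybridised to Affymetrix mouse 430 2.0 arrays, and the authors deposited 1 linear intensity per probe set for 45101 probe sets, 64 of them controls. Which software made them is not given in the sources used here. Each array had been scaled: all had a mean of 100 once the highest and lowest 2% of values were trimmed. Of 45037 other probe sets the platform annotation gave 34945 one symbol, 932 several and 9160 none, and symbols were updated by Entrez number (99.4% found) to RefSeq GRCm38.p6. The brightest probe set by mean stood for a gene, which gave 18193 genes (9010 with more than 1 probe set). No arrays were identical (0 pairs).

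Values were taken as log2(signal + 16) and tested with limma 3.58.1 in R 4.3.3 (group means, all 11 arrays, 8 residual and 3.98 prior degrees of freedom, 2-sided, adjusted p under 0.05, no level filter). The model and the exact permutation test (Python 3.11.15 with numpy 2.4.6) were tested on simulated data. The number of arrays limits the precision. Same-numbered arrays correlated at -0.21 to 0.31, over 0.1 in 3 of 10 pairs, so numbers were not taken as pairs. The members and lists were chosen with earlier results of these data known. All members are named; of each list up to 4 called genes with the smallest p; and the 10 genes most correlated with Adipoq within groups. Alternatives were the offset, scaling, level filter, probe set choice, variance prior, array weights, arrays in the fit, replicate block, threshold, each array left out, and marker levels as covariates. Fits without arrays rich in pancreatic transcripts (mean log2 level above 10) and the alternatives for probe sets were added after seeing the data.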

Additional observations from a re-analysis of the deposited data

Results flagged for a closer look

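Within the treated groups of 4 arrays, 24 sets of values from 12 genes (the 8 members, Pparg, Car3, Mrap and Lpl) were examined for a single array far from the other 3, of which chance marks about 1 in 20. For Pparg at 3 h, replicate 1 read 500.5 against 340.4 to 347.2 on the others, a gap of 0.95 of the group's range. For Mrap at 12 h, replicate 3 read 23.9 against 5.8 to 7.6, a gap of 0.87.

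The effects at the 2 time points differed, by the test of 12 h against 3 h (limma, adjusted p under 0.05), for 1 member, Scd1 (-0.85). Among the genes named around the members, later values were lower for Mrap (-1.04), Mgll (-0.59), Irs2 (-1.16), Cebpb (-1.38), Cebpd (-1.80), Klf9 (-0.68), Klf15 (-1.09), Zbtb16 (-1.29), Errfi1 (-1.23), Dusp1 (-1.30), Des (-0.88) and Actg2 (-0.76). They were higher for G0s2 (0.78), Plin2 (0.46), Scd2 (0.73), Hoxd10 (0.80), Hoxb13 (0.88), Hoxa13 (0.65) and Hoxd13 (0.90).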

How the results depend on the processing

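Each gene's change was recomputed under 28 alternatives, or 27 where the gene was too dim for the level filter. The 4 called changes of members lost their call in 32 of 112 combinations and never turned sign. The members' other changes turned sign in 31 and gained a call in 11. The other named genes lost a call in 372 of 1364 combinations and turned sign in 6. Values below are given in the order 3 h to control, 12 h to control, 12 h to 3 h, beside 463, 294 and 742 genes and 2, 1 and 1 members called; the 14 member probe sets gave 4 calls over all comparisons. An adjusted p under 0.1 called 879, 682 and 1276 genes, 4 members at 3 h and 8 probe sets, and one under 0.01 called 127, 53 and 236 genes, 1, 0 and 0 members and 1 probe set. An offset of 1 left 228, 80 and 437 genes, 0 members in the last 2 comparisons and 1 probe set; an offset of 64 gave 492 genes at 12 h. A mean signal of at least 50 gave 619 genes at 12 h, 4 members at 3 h and 8 probe sets, the trended prior 527 genes at 12 h and 7 probe sets, and the probe set of highest variance 169 genes at 12 h. Fitting only the groups compared gave 4 members at 3 h, and 60 genes and 0 members at 12 h.

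With the replicate number as a block, although the numbers did not pair the samples, 278, 182 and 467 genes, 1, 0 and 1 members and 1 probe set were called. With the other adipocyte markers as a covariate 32, 27 and 416 genes, 0 members and 0 probe sets were called. With the pancreatic level there were 186 and 330 genes in the last 2 comparisons, 4 members at 3 h and 0 for 12 h against 3 h. With the posterior Hox level 3 and 10 genes were called in the comparisons with the 3 h group, with 0 members and 0 probe sets there. Without the 5 arrays high in pancreatic transcripts 80, 8 and 16 genes, 0 members and 0 probe sets were called. Leaving out 1 array at a time gave 161 to 520, 63 to 449 and 391 to 755 genes, 1 to 3, 0 to 1 and 0 to 1 members, and 1 to 4 probe sets. The causes were not tested.

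Signs turned as follows. The highest-variance probe set of Mgll gave -0.46 at 3 h and 0.46 for 12 h against 3 h. The posterior Hox covariate gave Scd2 -0.02 and Hoxd13 -0.17 for 12 h against 3 h, and Vnn1 -0.40, Hoxd13 0.06 and Pck1 0.29 at 3 h. For 12 h against 3 h it gave Fabp4 0.24, Plin4 0.24, Cidec 0.18, Lep 0.08 and Pck1 -0.09. The adipocyte covariate gave Adipoq -0.24 at 12 h against control, and Fabp4 0.20, Plin4 0.06, Cidec 0.23, Retn 0.04 and Lep 0.02 for 12 h against 3 h. Without the pancreatic-high arrays the values at 12 h were -0.26 for Adipoq, -0.17 for Scd1 and -0.10 for Lep, and Pck1 was 0.10 at 3 h. An offset of 64 gave Cidec 0.01 for 12 h against 3 h. Leaving out 1 array, that comparison ran from -0.16 to 0.12 for Fabp4, -0.27 to 0.20 for Cidec and -0.21 to 0.12 for Lep. Lep at 12 h ran from -0.03 to 0.22, and Pck1 from -0.45 to 0.04 at 3 h and -0.13 to 0.36 at 12 h.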
